A study of Mus musculus with 33 samples.

Results

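DLX5 binding was followed in the mouse ganglionic eminences across 3 embryonic ages by its deposited ChIP-seq peak lists. All peaks of the 3 DLX5 lists on chromosomes 1 to 19 and X were taken, and intervals listed more than once were counted once. The lists held 11361 (e11.5), 2951 (e13.5) and 27370 (e16.5) peaks, or 41682 of the 129372 peaks in the 9 lists for DLX1, DLX2 and DLX5. Peaks of different ages that shared at least 1 bp were merged, which gave 31026 DLX5 regions.

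The 3 DLX5 libraries came from wild-type CD1 embryos, with 1 library per age, and stand among 33 samples of the series. The basal ganglia were dissected with the progenitor and mantle zones of the lateral, medial and caudal ganglionic eminences, so each library averages dividing and postmitotic cells of 3 territories. Chromatin was fixed, sonicated and precipitated with a rabbit antibody to DLX5 made in the laboratory, and peaks were called against input. The labels give DLX5 its own input at e13.5, while the inputs of e11.5 and e16.5 are labelled by age only. The protocol text names e13.5 embryos only, and the ages used here are those of the stage labels. Histone marks were mapped separately by native ChIP after micrococcal nuclease digestion, in wild type and in Dlx1/2-/- tissue at e13.5, with 1 library each. The number of embryos behind a ChIP library is not stated in the labels.

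DLX proteins are homeodomain transcription factors that bind AT-rich DNA. Their genes lie in pairs, with Dlx1 beside Dlx2 and Dlx5 beside Dlx6, and in the ventral forebrain they act in the making of GABAergic projection neurons and interneurons. DLX1 and DLX2 act from the progenitor stage on, and Dlx5 is switched on later in the same lineage, partly under their control. H3K4me3 marks promoters, H3K4me1 marks enhancers and the flanks of promoters, H3K27ac marks active elements of either kind, and H3K27me3 is laid down by Polycomb at repressed genes.

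Wild-type RNA of the same tissue at e13.5 held the transcripts that define ganglionic eminences. Dlx5 was measured at 4.62, 4.86, 5.16 and 6.63 CPM in the 4 libraries and Dlx6, its neighbour, at 12.2 to 16.8 CPM. Dlx1 stood at 116.5 to 129.3 CPM and Dlx2 at 15.3 to 28.8 CPM. All 8 genes of the ganglionic eminence list were detected, with a summed level of 514.8 to 557.8 CPM per library. All 5 cortical glutamatergic markers were detected as well, at a summed 367.7 to 450.9 CPM, of which Neurod6, a factor of cortical projection neurons, made 232.5 to 326.4 CPM. Endothelial markers summed to 57.2 to 85.5 CPM and microglial markers to 12.5 to 28.6 CPM, while the erythroid markers reached a summed 1644 to 1886 CPM. Of the erythroid sum Hbb-y made 1637 to 1878 CPM and Hba-x 5.24 to 8.31 CPM. The part of these other cells in the e13.5 peak lists was not tested. These files do not show how deeply each ChIP library was sequenced, and deeper libraries yield longer lists, so the list sizes are not a measure of how much DLX5 was bound.

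Most DLX5 regions held a peak at 1 age, and most of those were in the long e16.5 list. Of the 31026 regions, 19072 held a peak at e16.5 only (61.5%), 5453 at e11.5 and e16.5 (17.6%) and 3715 at e11.5 only (12%). A peak at every age was found in 1856 regions (5.98%), called all-age regions here. Another 788 regions held peaks at e13.5 and e16.5, 108 at e13.5 only and 34 at e11.5 and e13.5. Regions called at e11.5 and e16.5 but not between them thus outnumbered the all-age regions, in data where the e13.5 list was the shortest.

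**Figure D1:**
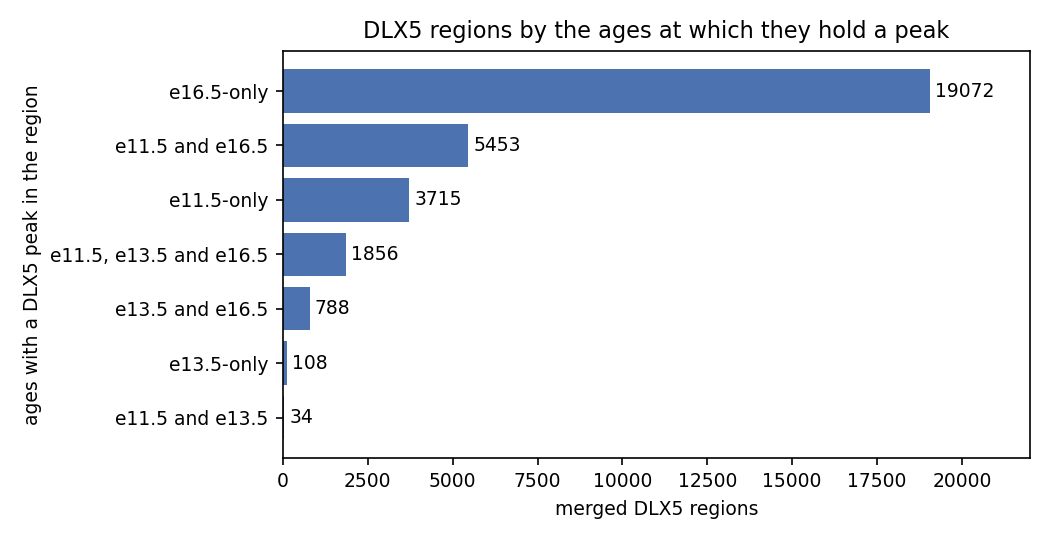
Number of merged DLX5 regions (horizontal axis) for each combination of ages at which the region held a called peak (vertical axis). The e16.5-only regions number 19072, and the 108 e13.5-only and 34 e11.5 and e13.5 regions are the smallest groups.

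The e13.5 list was almost wholly contained in the later one. Of 2951 peaks at e13.5, 2801 overlapped a peak at e16.5, which is 94.9% (95% exact binomial interval 94.1 to 95.7%). This and all later intervals cover counting error only, since there was 1 library per age, and no difference between ages could be tested. Of the same e13.5 peaks, 68.1% (66.4 to 69.8%) overlapped a peak at e11.5. In the other direction 9.76% of the 27370 peaks at e16.5 overlapped a peak at e13.5 (9.41 to 10.1%), and 27.4% a peak at e11.5 (26.9 to 27.9%). Of the 11361 peaks at e11.5, 17.1% were kept at e13.5 (16.4 to 17.8%) and 67% were present at e16.5 (66.1 to 67.8%). The overlap rule bears on these shares: when each peak had to cover 50% of the other, the share of e13.5 peaks kept at e16.5 was 58.9%, and that of e16.5 peaks found at e13.5 was 6.35%. With only peaks of a −log10 q of 10 or more in both lists, 26.6% of e11.5 peaks were kept at e13.5 and 9.2% of e16.5 peaks were found at e11.5.

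Within shared sites the strongest points lay close together. The summit, the base with the highest pileup in a peak, lay a median of 34 bp apart between e13.5 and e16.5 (quartiles 14 and 79 bp), 45 bp between e11.5 and e13.5, and 61 bp between e11.5 and e16.5. Summits were within 100 bp of each other in 80.4%, 76.8% and 65.9% of the shared peaks in that order.

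Peaks that recurred were the stronger and wider members of their own list. For every peak the authors gave a fold over input and a −log10 q, and both are used to describe and rank peaks. Values of different lists are set side by side for named regions, but they depend on each library's depth and input, and no change is read from them. At e16.5, peaks also called at e13.5 had a median fold of 8.08 and a median −log10 q of 24.1, against 4.22 and 6.41 for the rest, and their median width was 495 bp against 293 bp. At e11.5 the peaks kept at e13.5 had a median fold of 6.02 against 4.44 and a median width of 392 bp against 283 bp. The peaks of e13.5 that had no counterpart at e16.5 numbered 150, with a median fold of 4.44 against 5.21 for those that had one.

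When each list was split into 10 equal groups (deciles) by −log10 q, the share of recurring peaks was lower in the weakest than in the strongest decile. In the strongest decile of the e11.5 list 60.7% of peaks were kept at e13.5 (57.8 to 63.5%, n = 1137), and in the weakest decile 5.46% (4.21 to 6.94%). For e16.5 peaks present at e13.5 these shares were 51.8% (n = 2737) and 1.17%. Overlap between e11.5 and e16.5 fell less steeply: 92.3% of the strongest and 50.9% of the weakest e11.5 decile had a peak at e16.5. Among e13.5 peaks 99.7% of the strongest decile and 86.4% of the weakest had a peak at e16.5.

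**Figure D2:**
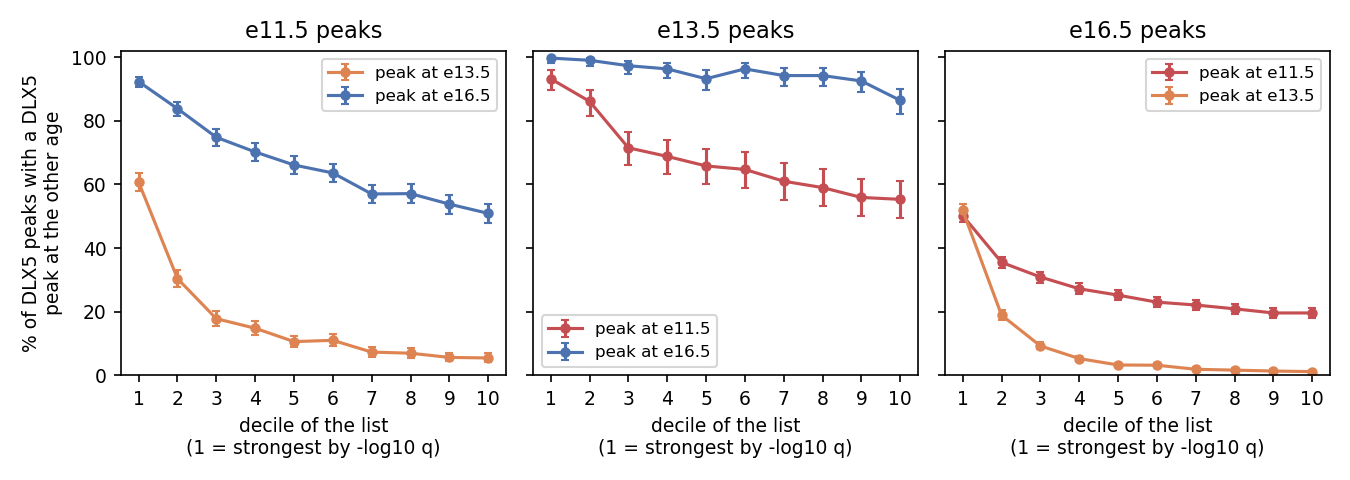
Share of DLX5 peaks with a DLX5 peak at another age (vertical axis, percent) by decile of the list ranked by −log10 q (horizontal axis, 1 is the strongest), in 1 panel per age; bars are 95% exact binomial intervals. The e11.5 peaks kept at e13.5 go from 60.7% to 5.46%, while the e13.5 peaks stay at 86.4% or above for e16.5.

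Sets of equal size take list length out of the comparison, although the weakest member had a −log10 q of 6.11, 1.26 and 21.2 in order of age. Taking the 2951 strongest peaks of each age, 53.5% of the e13.5 set overlapped the e16.5 set (51.7 to 55.3%) and 50.1% of the e16.5 set overlapped the e13.5 set. Between e11.5 and e13.5 these shares were 39.6% (37.8 to 41.4%) and 42.7%, and between e11.5 and e16.5 they were 30.2% (28.5 to 31.9%) and 29.1%. In these sets neighbouring ages thus shared more peaks than the ages farthest apart. Both neighbouring comparisons use the e13.5 set, which is its whole list. With 1 library per age, the counting intervals do not test a difference between ages. A peak in all 3 sets was found for 734 of the 2951 strongest e16.5 peaks, or 24.9%. The same sets for DLX2 shared 73.2% between e11.5 and e13.5, 71.7% between e13.5 and e16.5 and 60.9% between e11.5 and e16.5, and for DLX1 33.5%, 50.9% and 44%. The lowest overlap for DLX5 and DLX2 was therefore between e11.5 and e16.5, and for DLX1 between e11.5 and e13.5.

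The highest peaks of every age were not particular to DLX5. On 6 chromosomes, 11 regions had a fold of at least 20 in all 9 lists of DLX1, DLX2 and DLX5. They held 11 of the 20 strongest DLX5 peaks at e11.5, 11 of 20 at e13.5 and 6 of 20 at e16.5. The strongest, at chr17:39979800-39985914 (mm9, as are all coordinates here), is 6115 bp wide and had DLX5 folds of 99.9 (e11.5), 61.9 (e13.5) and 56.6 (e16.5). Its DLX1 folds were 82, 51 and 52.6 and its DLX2 folds 87, 65.2 and 64.7. At chr9:35112651-35113243 the DLX5 folds were 65.6, 63.1 and 44.4, and at chr2:98506252-98507609 they were 58, 56 and 35.3. The widest of the 11, chr11:3080547-3100129 at 19583 bp and chr11:3059390-3074800 at 15411 bp, hold the 2 widest DLX5 peaks of e13.5 and of e16.5 and the widest of e11.5. The next widest e11.5 peak, chr11:3030632-3049013, had a fold of 27.3 and a peak in all 9 lists but was not among the 11. A peak of H3K27ac, H3K4me3 and H3K27me3 with a −log10 q of at least 5 covered each of the 11, and one of H3K4me1 covered 7. These regions touch 11, 12 and 13 peaks of the DLX5 lists from e11.5 to e16.5, and each of the 30 results recomputed without them stayed within its counting interval. Leaving out so few peaks could hardly move a share, so this shows only that they are few.

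The 5 all-age regions that come next in strength were taken as a set after values were seen, by their largest −log10 q over the ages. That largest value came from e16.5 in each, so a high e16.5 fold is part of the choice. The first of them, on chromosome 5, was also in the planned set of the 5 strongest all-age regions. At chr5:132345509-132346154, a single-summit region of 646 bp, DLX5 had folds of 12.4, 16.8 and 38.6 in order of age, DLX1 had 7.91, 25.6 and 29.3, and DLX2 had 18.6, 44.1 and 56.7. It lay under an H3K4me1 peak and under none of the other 3 marks at a −log10 q of at least 5. At chr2:115550631-115551920 the DLX5 fold was 12 at e11.5 and 37.5 at e16.5 and the DLX2 folds were 18.4, 38.2 and 45.4, again under H3K4me1 alone. At chr14:22855918-22857308 the DLX5 folds were 12.4, 20.8 and 33.2, with H3K4me1 and H3K27me3. At chr6:6819029-6820774, 1746 bp wide, they were 9.83, 11.9 and 35.4, with H3K27ac, H3K4me3 and H3K27me3. At chr13:53900958-53901636 DLX5 folds of 5.71, 6.74 and 33.6 stood beside DLX1 folds of 11.3 and 24.3 at e13.5 and e16.5 and no DLX1 peak at e11.5. All 5 regions also had DLX1 peaks at e13.5 and e16.5 and DLX2 peaks at every age.

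Regions called at a single age had lower folds than all-age regions, with medians of 4.12 against 6.02 at e11.5 and of 4.22 against 8.45 at e16.5. The strongest e11.5-only region, chr9:102084230-102084698, had a DLX5 fold of 14.3, no DLX1 peak, and DLX2 folds of 4.48, 8.06 and 3.71 at the 3 ages. The next, chr15:85294552-85295040, had 11.4 and neither DLX1 nor DLX2 at any age, and so did chr11:5025120-5025519 at 11.1. At chr7:86670481-86670902 a DLX5 fold of 11.1 came with DLX2 folds of 5.19, 10.6 and 3.89 and with H3K27ac, H3K4me1 and H3K4me3. Of the 5 strongest e11.5-only regions, that was the only one under H3K4me3.

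The strongest e16.5-only regions were DLX1 and DLX2 sites too. At chr10:64787548-64788429 the DLX5 fold at e16.5 was 23.7, beside a DLX2 peak, with DLX1 at 5.25 at e13.5 and 11.6 at e16.5. At chr3:135772483-135773028 it was 21.5, and DLX1 and DLX2 were already called there at e13.5, with folds of 8.18 and 10.8, and again at e16.5, with 20.1 and 30.2. At chr11:84243084-84243422 DLX5 had 20.9 and DLX2 had 5.19, 6.59 and 18 from e11.5 to e16.5. Among the strongest regions called at e11.5 and e16.5 without e13.5, chr7:38963303-38964357 had DLX5 folds of 4.75 and 23.5, and chr3:8367354-8368422 had 4.75 and 22.8 with DLX2 folds of 7.07, 15 and 23.3 from the youngest to the oldest age. Both had a DLX1 peak at e13.5, with folds of 6.93 and 12.2, where no DLX5 peak was called. The chr7 region lies inside a stretch of many peaks, chr7:38959320-38986343, which held 10 other DLX5 peaks at e13.5.

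The e13.5 histone marks at DLX5 regions differed by the ages of the DLX5 peak. The deposited histone lists reach a −log10 q near 0 and the H3K27ac list alone spans 563.5 Mb, so most DLX5 regions overlap some listed peak. Against all deposited peaks, 81.6% of the 31026 regions lay at H3K27ac, 84.5% at H3K4me1, 80.0% at H3K4me3 and 46.1% at H3K27me3. For e11.5-only regions these shares were 94.2%, 81.7%, 96.6% and 77.1%, for all-age regions 92.8%, 90.9%, 97% and 51.6%, and for e16.5-only regions 73.9%, 84.9%, 69.8% and 31.1%. The stricter set of histone peaks, limited to a −log10 q of 5 or more, separates the regions more and is used from here on. Over all regions it gave 33.2% at H3K27ac, 51.4% at H3K4me1, 50.5% at H3K4me3 and 21.8% at H3K27me3.

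The promoter mark H3K4me3 was most frequent at regions called at e11.5 outside e13.5. It covered 86.8% of regions called at e11.5 and e16.5 (85.9 to 87.7%, n = 5453) and 77.9% of e11.5-only regions (76.6 to 79.3%, n = 3715). It covered 58.1% of all-age regions (55.9 to 60.4%, n = 1856), 35.3% of e16.5-only regions (34.6 to 36%, n = 19072) and 22.5% of regions called at e13.5 and e16.5 (19.6 to 25.5%, n = 788). H3K27ac took the same order, with 68.5%, 51.5%, 35%, 20.4% and 9.9%. H3K27me3 followed with 44.1%, 40.3%, 25.8%, 12.1% and 5.71%. H3K4me1 stood apart: all-age regions had the highest share at 70.7% (68.6 to 72.8%), followed by e11.5-only at 67.7%, e11.5 and e16.5 at 61%, e13.5 and e16.5 at 54.3% and e16.5-only at 43.5%.

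**Figure D3:**
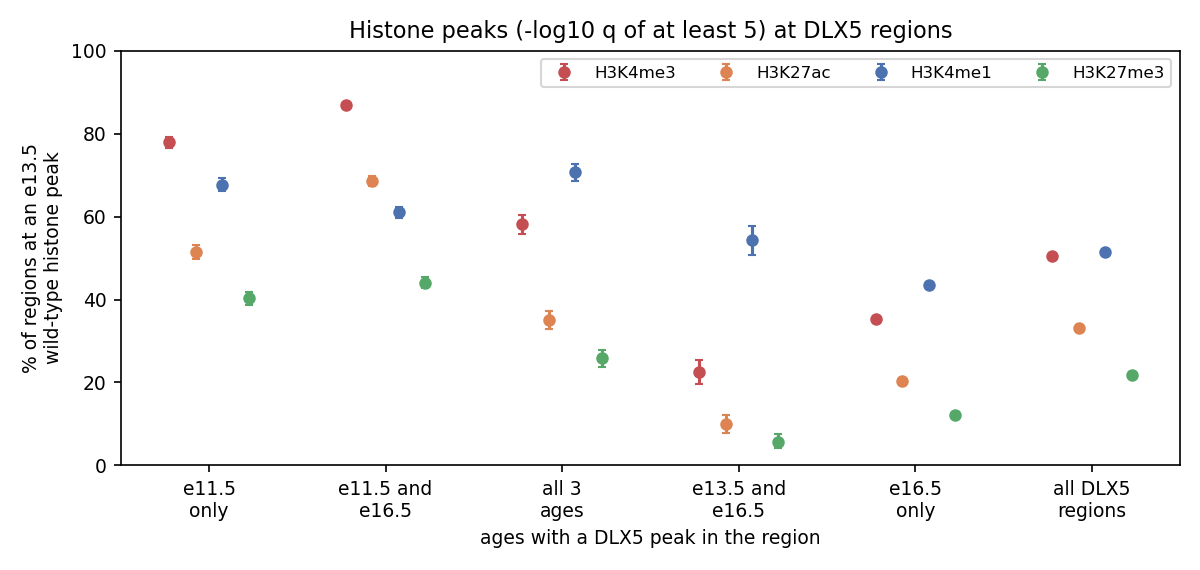
Share of DLX5 regions (vertical axis, percent) that overlap a wild-type e13.5 histone peak with a −log10 q of at least 5, by the ages with a DLX5 peak (horizontal axis) and for all 31026 regions; bars are 95% exact binomial intervals. H3K4me3 covers 86.8% of the e11.5 and e16.5 regions and 22.5% of the e13.5 and e16.5 regions, while H3K4me1 stays between 43.5% and 70.7% in the groups drawn, which leave out the 108 e13.5-only and the 34 e11.5 and e13.5 regions.

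The marks also occurred in different combinations. H3K4me3 together with H3K27me3, the pair known from poised developmental promoters, lay at 43.5% of the regions called at e11.5 and e16.5. It lay at 38.2% of e11.5-only, 22.3% of all-age, 11.3% of e16.5-only and 4.82% of e13.5 and e16.5 regions. The pair with H3K27ac as well lay at 39%, 27.3%, 16.6%, 8.41% and 3.05% of these groups in the same order. Most regions with the pair thus also lay under the active mark, and the pair is not read here as a poised state. H3K4me1 without H3K4me3, the usual signature of a distal element, lay at 36% of e13.5 and e16.5 regions and 28.8% of all-age regions, against 20.7% of e16.5-only, 13.7% of e11.5-only and 8.93% of e11.5 and e16.5 regions. Of these distal-type regions few lay at H3K27ac at this cutoff, 28 of 534 in the all-age and 122 of 3951 in the e16.5-only group. They made 1.51% of all-age and 0.64% of e16.5-only regions. The cutoff keeps 3.07% of the deposited H3K27ac peaks, against 18.4% of H3K4me1 peaks. Weaker H3K27ac at these regions is therefore not excluded. Nor is weaker H3K4me3, since 97% of all-age and 69.8% of e16.5-only regions lay at some deposited H3K4me3 peak. At this cutoff none of the 4 marks was found at 43.5% of e16.5-only and 41.1% of e13.5 and e16.5 regions. For e11.5-only regions this was 7.51%, and for e11.5 and e16.5 regions 4.18%. Weaker marks may lie there too, as 84.9% of all e16.5-only regions lay at some deposited H3K4me1 peak. The marks were measured at e13.5 alone, so these shares say nothing of the marks at e11.5 or e16.5.

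Where H3K4me3 was present, its peaks had the highest folds at regions called at e11.5 outside e13.5. The median fold of the overlapping H3K4me3 peak was 12.4 at e11.5-only regions and 12.4 at e11.5 and e16.5 regions, against 11.1 at e16.5-only, 8.89 at all-age and 6.81 at e13.5 and e16.5 regions. The H3K27me3 peaks at all-age regions had a median width of 4857 bp and those at e11.5 and e16.5 regions of 1470 bp. H3K4me1 peaks differed little, with median folds from 4.2 to 4.64 in these 5 groups.

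The groups of regions differed in width and in DLX5 strength, and both were checked, strength only for regions with an e16.5 peak. All-age regions have a median width of 586 bp and e16.5-only regions of 278 bp, so a wide region meets a histone peak more easily. With the summit base of the strongest DLX5 peak in place of the region, H3K4me3 covered 58.1% of all-age, 77.8% of e11.5-only and 34.9% of e16.5-only regions. The regions with an e16.5 peak were also split into 5 equal groups (quintiles) by strength, which leaves out e11.5-only regions. Strength still differed inside the strongest quintile. The median −log10 q at e16.5 was 34.3 for all-age, 28.1 for e13.5 and e16.5, 19.3 for e11.5 and e16.5 and 20.3 for e16.5-only regions. Within the strongest quintile, H3K4me3 covered 72.6% of the e11.5 and e16.5 regions (n = 931), 54.5% of all-age (n = 1397), 18.5% of e13.5 and e16.5 (n = 524) and 16.6% of e16.5-only regions (n = 2582). In the weakest quintile it covered 91.6%, 72.5%, 39.1% and 50.7%, the last but one over 23 regions only. The order of e11.5 and e16.5 over all-age over e16.5-only regions held in each of the 5 quintiles. H3K4me3 went up as DLX5 strength went down inside the e16.5 list, from 32.9% of the strongest decile of peaks to 59.7% of the weakest.

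The high H3K4me3 share at e11.5 was also seen for DLX1. Among the 2951 strongest peaks of each DLX5 list, H3K4me3 covered 74.2% at e11.5 (72.6 to 75.7%), 46.2% at e13.5 (44.3 to 48%) and 32.9% at e16.5 (31.2 to 34.7%). The e13.5 set is its whole list, while the others are cut to their strongest peaks. In the whole lists the shares were 78.9%, 46.2% and 47.1%, so no fall from e13.5 to e16.5 was seen there. For DLX1 the shares of equal-size sets were 74%, 25.4% and 44.5%, and for DLX2 they were 46.7%, 41.1% and 33.2%. At e11.5 the DLX2 share thus lay below those of DLX5 and DLX1. H3K27ac gave the same picture at e11.5, with 54% for DLX5, 53.5% for DLX1 and 21.5% for DLX2. In the same sets H3K4me1 covered 62.5%, 61.8% and 56.9% of DLX5 peaks and 79.1%, 80.4% and 71% of DLX2 peaks from e11.5 to e16.5.

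Read from the histone side, DLX5 regions lay in most of the strongest H3K27ac peaks. Of 8883 H3K27ac peaks whose −log10 q was at least 5, 79.4% held a DLX5 region of any age (78.6 to 80.3%), 56.2% an e11.5 peak, 7.13% an e13.5 peak and 69.2% an e16.5 peak. DLX5 regions lay in 50.3% of 23458 H3K4me3 peaks, 56.9% of 8810 H3K27me3 peaks and 29.7% of 41856 H3K4me1 peaks. These peaks are broad, with median widths from 2718 to 3235 bp.

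The marks went with different fates of the e11.5 peaks. Of e11.5 peaks at H3K4me3, 12.4% were kept at e13.5 (11.7 to 13.1%, n = 8966), against 34.5% of those not at H3K4me3 (32.6 to 36.4%, n = 2395). For H3K27ac the shares were 10.3% and 26.1%. At e16.5 the shares were close, with 67.5% of e11.5 peaks at H3K4me3 and 65.2% of the others present. Looking back from e16.5, 46.4% of peaks at H3K4me3 had a peak at e11.5 (45.5 to 47.2%, n = 12897), against 10.5% of the others (10 to 11%, n = 14473), while 9.86% and 9.67% had one at e13.5. At H3K4me1, 13% of e16.5 peaks were called at e13.5, against 6.68% of the others. The e11.5 peaks at H3K4me3 were more frequent among weak peaks, with 71.1% in the strongest decile and 83.3% in the weakest, and the part of this gradient in the split was not tested.

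DLX5 shared its sites with DLX1 and DLX2 to a different extent at each age. At e13.5, 91.5% of DLX5 peaks overlapped a DLX1 or DLX2 peak of that age (90.4 to 92.4%), with 88.2% at DLX2, 77.9% at DLX1 and 74.6% at both. At e16.5 it was 73.8% (73.3 to 74.3%), with 69.5% at DLX2 and 47.5% at DLX1. At e11.5 it was 46.3% (45.4 to 47.2%), with 37.2% at DLX2 and 27.8% at DLX1, so that 53.7% of e11.5 DLX5 peaks had neither. Seen from the other lists, DLX5 peaks covered 71.3% of DLX1 and 49.4% of DLX2 peaks at e11.5, 26.2% and 14.7% at e13.5, and 77.9% and 57.4% at e16.5. In equal-size DLX5 sets the share at either factor was 67.8% at e11.5 (66.1 to 69.5%), 91.5% at e13.5 and 96% at e16.5 (95.2 to 96.6%). Sharing fell with strength inside each list, from 76.3% of the strongest decile to 29.6% of the weakest at e11.5, and from 96.2% to 54.4% at e16.5. The DLX antibodies were raised to related proteins, and cross-reaction between them was not tested here.

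Regions kept over time were the most shared. DLX2 had a peak at e13.5 in 91% of e13.5 and e16.5 regions (88.8 to 92.9%) and 90% of all-age regions (88.5 to 91.3%), against 53.8% of e11.5 and e16.5, 28.4% of e16.5-only and 27.9% of e11.5-only regions. DLX1 at e13.5 was found in 74.7%, 82.3%, 25.5%, 10.5% and 4.74% of the same groups. These shares also go with DLX5 strength, in which the groups differ. In the strongest e16.5 quintile DLX2 at e13.5 lay at 93.6% of all-age and 50.1% of e16.5-only regions. In the weakest quintile it lay at 62.5% and 19%. At the 788 regions where DLX5 was called at e13.5 and e16.5 but not at e11.5, DLX2 had an e11.5 peak in 59.9% (56.4 to 63.3%) and DLX1 in 13.2% (10.9 to 15.8%). At the 5453 regions without an e13.5 DLX5 peak but with both others, DLX1 or DLX2 had an e13.5 peak in 58.4% (57 to 59.7%). At e16.5-only regions DLX1 or DLX2 was called at e11.5 in 12.5%, at e13.5 in 30.6% and at e16.5 in 66.9%. A DLX1 or DLX2 peak of any age was found at 51.2% of e11.5-only regions, 68.3% of e16.5-only regions and 88.8% of e11.5 and e16.5 regions, against 98.4% of e13.5 and e16.5 regions and 97.6% of all-age regions.

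**Figure D4:**
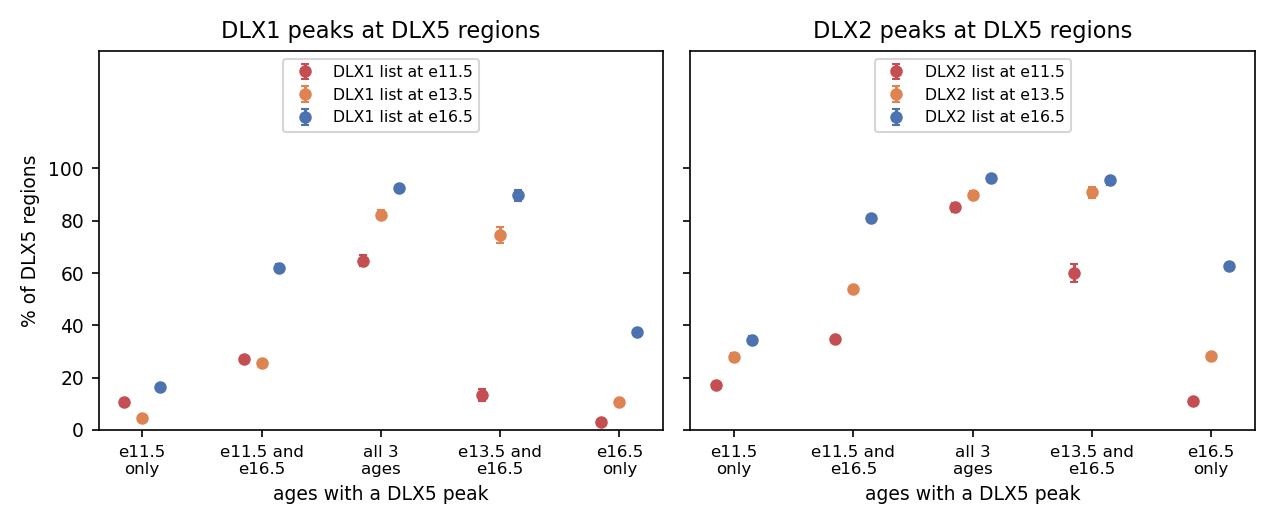
Share of DLX5 regions (vertical axis, percent) that hold a DLX1 peak (left) or a DLX2 peak (right) of each age, by the ages with a DLX5 peak (horizontal axis); bars are 95% exact binomial intervals. At e13.5 and e16.5 regions the e11.5 lists give 13.2% for DLX1 and 59.9% for DLX2.

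DLX5 peaks were narrow at each age. The median width was 296 bp at e11.5 (quartiles 230 and 401 bp), 270 bp at e13.5 (223 and 358 bp) and 305 bp at e16.5 (240 and 417 bp), with 136, 43 and 346 peaks wider than 1000 bp. In the equal-size sets the medians were 401, 270 and 479 bp. The e13.5 set is its whole list, so the cut to the strongest peaks raised the median at e11.5 and e16.5 only. The wider gaps between ages are thus part of the choice. Peaks with more than 1 summit made 5.89%, 4.74% and 7.65% of the whole lists.

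The peaks were unevenly spaced, and clustering depended on list length. Another DLX5 peak of the same age lay within 10 kb of 33.8% of e11.5 peaks, 19.7% of e13.5 peaks and 37.1% of e16.5 peaks. In the equal-size sets the order of the ages was reversed, with 15.3% at e11.5 (14 to 16.7%), 19.7% at e13.5 (18.3 to 21.2%) and 9.12% at e16.5 (8.1 to 10.2%). Within 1 kb the equal-size shares were 7.9%, 12.4% and 2.24%. Runs of at least 3 peaks spaced by 10 kb or less held 12.4% of e11.5, 10.2% of e13.5 and 14.6% of e16.5 peaks. In the equal-size sets they held 7.32%, 10.2% and 3.15%, which again reverses the order of the ages. As for width, the e13.5 set is its whole list and only the other lists were cut. Both reversals are thus part of the choice and are not read as a change with age. At e16.5, 68% of peaks in such runs lay at H3K4me3 (66.5 to 69.4%) against 43.6% of the others, and at e11.5 85.4% against 78%. At e13.5 H3K4me3 covered 44.3% of the 300 peaks in runs and 46.4% of the others, and H3K27me3 37% and 16.8%. A single stretch, chr2:77707687-77865199, holds 121 of those 300 peaks. Without it H3K4me3 covered 71.5% of the other 179 peaks in runs (64.3 to 78%) and H3K27me3 57% (49.4 to 64.3%), so that H3K4me3 was then more frequent in runs at e13.5 too. Without all 5 stretches of the longest runs, the shares were 65.6% (56.6 to 73.9%) and 48% (39 to 57.1%) of 125 peaks in runs.

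**Figure D5:**
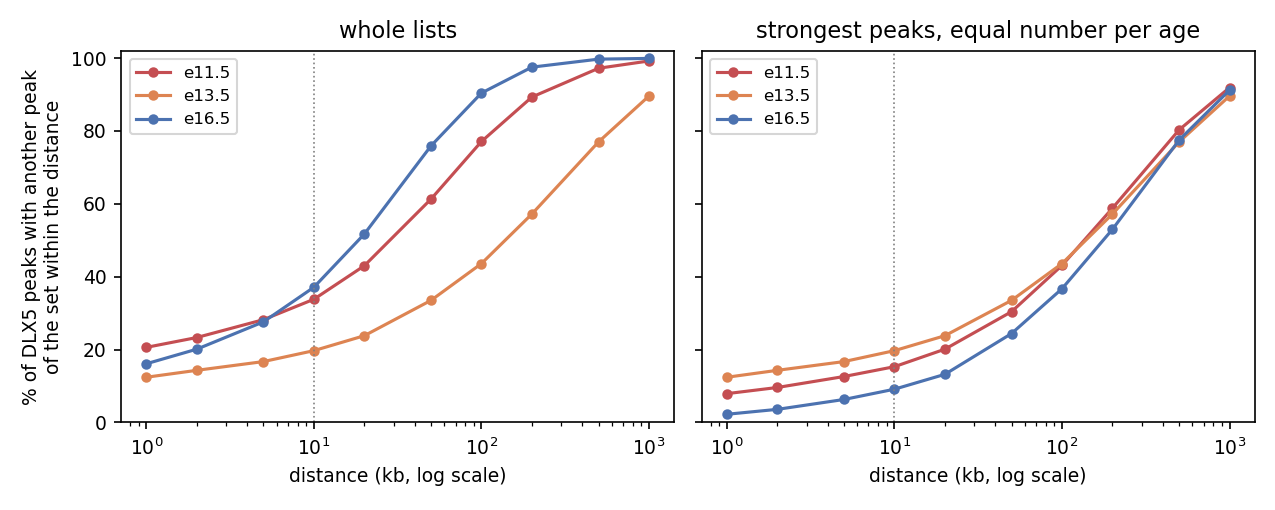
Share of DLX5 peaks with another DLX5 peak of the same set (vertical axis, percent) within a distance in kb (horizontal axis, log scale), for whole lists (left) and for the 2951 strongest peaks of each age (right); the dotted line marks 10 kb. In the right panel e13.5 is highest at 10 kb with 19.7% and e16.5 lowest with 9.12%.

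A few stretches carried the longest runs, and 1 of them weighed on the e13.5 list. At chr2:77707687-77865199, 157.5 kb, the DLX5 lists had 71 (e11.5), 121 (e13.5) and 43 (e16.5) peaks. The same stretch held 36, 60 and 46 DLX1 peaks and 29, 82 and 50 DLX2 peaks, so all 3 factors had most peaks there at e13.5. In the e11.5 run 3 of the 71 peaks lay at H3K4me3 and 16 at H3K4me1. At chr9:2999872-3038375 all 24 e13.5 peaks lay at both H3K4me3 and H3K27me3 and none at H3K4me1, and 2 of them belong to the 11 regions high in all 9 lists. The run at chrX:166407668-166445856 had 26, 17 and 16 DLX5 peaks, and that at chr7:38959320-38986343 had 23, 10 and 17. At chr13:83854573-83890461 the numbers were 15, 5 and 28, and all 28 peaks of the e16.5 run lay at H3K4me3 and none at H3K27me3. Together the 5 stretches held 1.37% of e11.5, 6% of e13.5 and 0.464% of e16.5 peaks. Without them the equal-size shares with a neighbour within 10 kb were 11.8%, 14.7% and 8.16%, in the same order of the ages.

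DLX5 regions were also set against the authors' lists of histone regions that differ between wild type and Dlx1/2-/-. These lists name the genotypes as conditions, and condition 1 was read as wild type because 80.8% (H3K4me3) to 97.6% (H3K27me3) of its regions carried their stronger peak in the wild-type list. H3K27ac regions higher in wild type covered 3.93% of all-age DLX5 regions (3.1 to 4.92%) and 2.16% of e13.5 and e16.5 regions, against 0.503% of e16.5-only, 0.348% of e11.5 and e16.5 and 0.296% of e11.5-only regions, and 0.699% of all regions. For H3K4me1 higher in wild type the highest share was at e13.5 and e16.5 regions, 7.99% (6.2 to 10.1%), followed by all-age at 4.53%, with 2.39% over all regions. Regions of H3K4me3 higher in the knockout had another order, at 3.21% of e11.5 and e16.5 regions and 2.64% of e11.5-only regions, against 1.83% of all-age, 0.381% of e13.5 and e16.5 and 1.54% of all regions. H3K27ac higher in the knockout covered 39 of all 31026 DLX5 regions.

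Seen from those lists, 48.9% of the 360 regions with more H3K4me3 in wild type held a DLX5 region (43.6 to 54.2%), against 26.7% of 1683 with more in the knockout and 40.8% of 35211 regions common to both genotypes. Of 700 regions with more H3K27ac in wild type 28.7% held a DLX5 region, against 6.79% of 545 with more in the knockout. That share was below the 34.9% of 37842 common H3K27ac regions. For H3K4me1 the shares were 25.1% of 2936 (wild type), 1.78% of 1906 (knockout) and 13.3% of 119693 (common), and for H3K27me3 1.78% of 5116, 6.19% of 662 and 25.1% of 30540. Taken over all ages, H3K4me3 and H3K4me1 regions higher in wild type thus held DLX5 more often than common ones. H3K27ac and H3K27me3 regions higher in wild type did so less often. Single ages did not all follow this order. Peaks of e13.5 lay in 9.43% of H3K27ac regions higher in wild type, against 3.59% of common ones. Peaks of e11.5 lay in 19.7% against 24% for H3K4me3, and in 3.51% against 4.84% for H3K4me1. The knockout removes Dlx1 and Dlx2, not Dlx5, and each genotype had 1 library per mark.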

How the data were processed

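DLX5 ChIP-seq was measured in 1 library at each of 3 ages, native histone ChIP-seq at e13.5 in 1 library per mark and genotype, and RNA-seq in 4 wild-type libraries at e13.5, from 4 embryos per the labels' protocols. Per the submitters' processing notes, the build was mm9 and the tools named include MACS2, BWA 0.7.16a, Trim Galore, deepTools, SAMtools and STAR 2.4.2a. The authors deposited MACS2 peak lists, with a fold enrichment over input (a ratio) and the −log10 of p and q for each peak. The deposited comparison regions between genotypes carry a score, which was used for no value here, and the RNA table holds the authors' read counts per gene, from which CPM was computed. Peak names carry the tag "mrgdf", which no label explains.

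Peaks on chromosomes 1 to 19 and X were kept, the rows on other contigs (81, 72 and 98 in the DLX5 lists) were left out, and repeated intervals, which are further summits of the same peak, were counted once. Overlap meant at least 1 bp, and the share of overlapping members is given with 95% exact (Clopper-Pearson) binomial intervals. With 1 library per age no test was made. The depth of the ChIP libraries is unknown, and the RNA libraries held 20.2 to 117 M counts. No genome of the files' build was used, so regions are given by position. Regions named are the 5 strongest peaks by −log10 q of each age, the 5 strongest regions called at all ages, at e11.5 only, at e11.5 and e16.5 and at e16.5 only, the 3 longest runs and the 2 widest peaks of each age. Of these the ones that matter are described, and further ones are said to be chosen after their values were seen. The members, lists and comparisons were chosen with earlier results of these data known. Alternatives were the overlap rule, thresholds on q, set size, ranking and neighbour distance. Another 6 were added after seeing the data: leaving out regions high in all 9 DLX lists, comparing within quintiles of strength, the DLX1 and DLX2 lists, leaving out the longest runs from the neighbour shares and from the marks in runs, and summits in place of regions. The overlap code was tested on simulated data and against bedtools 2.31.1, with Python 3.11.15, numpy 2.4.6, pandas 2.3.3, scipy 1.17.1 and matplotlib 3.10.9.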

Additional observations from a re-analysis of the deposited data

How the results depend on the processing

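With 1 library per age, no spread between replicates could be measured, list sizes depend on read depth that is unknown here, and all marks come from e13.5. Of 114 recomputed values, 43 stayed within the counting interval of the reported value and 71 did not. No paired analysis was possible because there was 1 library per age and the results come from no test. The 30 results recomputed without the 11 regions high in all 9 lists stayed within their intervals, and so did the 3 equal-size shares ranked by fold. Those 30 are among the 43, and leaving out so few regions could hardly have moved them.

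In the order e11.5 kept at e13.5, e13.5 found at e11.5, e13.5 kept at e16.5, e16.5 found at e13.5, e11.5 present at e16.5 and e16.5 found at e11.5, the shares were as follows. A 50% reciprocal overlap gave 12.7%, 48.8%, 58.9%, 6.35%, 45.6% and 18.9%. Summits within 100 bp gave 13.1%, 50.4%, 76.3%, 8.23%, 44.1% and 18.3%. A −log10 q of at least 10 in both lists gave 26.6%, 59.5%, 97.9%, 5.65%, 73.6% and 9.2%. With a 50% reciprocal overlap the equal-size sets shared 29% (e11.5 and e13.5), 32.4% (e13.5 and e16.5) and 24.2% (e11.5 and e16.5), and the strongest 1000 peaks shared 50.2% (e13.5 and e16.5) and 27.4% (e11.5 and e16.5). Neighbouring ages kept the higher shares in both.

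The median width in equal-size sets was 401 bp at e11.5 and 479 bp at e16.5. Shares of equal-size peaks with a neighbour from e11.5 to e16.5 were 12.6%, 16.7% and 6.3% within 5 kb and 20.1%, 23.8% and 13.2% within 20 kb. With whole lists they were 33.8% at e11.5 and 37.1% at e16.5, and without the longest runs 11.8% at e11.5 and 14.7% at e13.5.

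For all-age, e11.5-only and e16.5-only regions, histone peaks of a −log10 q of at least 5 gave 35%, 51.5% and 20.4% at H3K27ac, 70.7%, 67.7% and 43.5% at H3K4me1, 58.1%, 77.9% and 35.3% at H3K4me3, and 25.8%, 40.3% and 12.1% at H3K27me3. Against all deposited histone peaks, the summit of the strongest DLX5 peak in place of the region gave 89.8%, 93.4% and 69.8% at H3K27ac, 85.2%, 78.8% and 80.7% at H3K4me1, 94.9%, 95.9% and 64.9% at H3K4me3, and 42.5%, 73.9% and 26.3% at H3K27me3. DLX5 peaks of a −log10 q of at least 5 gave, for e11.5-only regions, 92.9% at H3K27ac, 77.8% at H3K4me1 and 79.3% at H3K27me3. For e16.5-only regions they gave 76.1% at H3K27ac, 72.7% at H3K4me3 and 33.4% at H3K27me3. For DLX1 or DLX2 at the same age, a 50% reciprocal overlap gave 35.1%, 74.9% and 64.8% from e11.5 to e16.5, and a −log10 q of at least 5 gave 49.7%, 94.3% and 75.1%. The cause of these shifts was not tested.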

Other observations

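Few DLX5 regions were called at e13.5 alone. These 108 regions had a median fold of 4.44 and a highest of 8.57, and 9 lay within 1000 bp of an e11.5 peak and 15 within 1000 bp of an e16.5 peak. A DLX1 or DLX2 peak of any age was found at 75% of them (65.7 to 82.8%), and none of the 4 histone marks at a −log10 q of at least 5 at 58.3% (48.5 to 67.7%). The 3 strongest, chosen after their values were seen, were chr5:92329746-92330032 with a DLX5 fold of 8.57, chr13:57129281-57129496 with 7.04 and chr9:76874198-76874398 with 6.43. At all 3 DLX1 was called at e13.5, with folds of 10.5, 13.4 and 13.4, and at e16.5, when DLX5 was not.

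DLX5 peaks had their largest difference between ages in chromosome share on chromosome 2, which at e13.5 held 13% of that list against 9.05% at e11.5 and 8.4% at e16.5. The stretch chr2:77707687-77865199 holds 121 of those e13.5 peaks. The X chromosome held 1.04%, 1.29% and 0.891% of the lists from e11.5 to e16.5.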
